A study of Mus musculus with 2 samples.

Results

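The cytosolic ribosomal protein genes were read in injured kidneys of mice lacking estrogen sulfotransferase (EST, encoded by Sult1e1), the enzyme that inactivates estrogens by attaching sulfate, against injured kidneys of wild-type mice. Members were the probe sets whose single gene symbol in the platform annotation was that of a protein of the small (Rps) or large (Rpl, Rplp) ribosomal subunit or Rpsa. S6 kinase genes and pseudogene names were left out. This gave 105 of 45101 probe sets, which stood for 49 of 18193 named genes. The EST KO AKI pool held 124 mg of kidney from 6 male EST KO mice, and the WT AKI pool held 180 mg of kidney from 3 male wild-type mice, where AKI stands for acute kidney injury. All mice were labelled C57BL/6, the stated age was 8 weeks, and kidneys were taken 24 h after 30 min of warm bilateral ischemia. Both groups were therefore injured, no uninjured kidney was measured, and the labels do not say which part of Sult1e1 was disrupted or in which cells. Each pool was read on 1 Affymetrix array, so the spread between mice is unknown, no test between genotypes exists, and every difference below is a size with no p-value.

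A cytosolic ribosome joins a small subunit, which holds the mRNA and reads its codons, to a large subunit, which forms the peptide bonds and lets the new chain leave through a tunnel. Each ribosome carries about the same number of copies of nearly every ribosomal protein, and their mRNAs are abundant in most cells, kidney tubule cells included. Most of these mRNAs begin with a run of pyrimidines at the cap, the 5′ terminal oligopyrimidine (TOP) tract, through which the kinase complex mTORC1 and the protein LARP1 control their translation together. Some ribosomal proteins also act outside the ribosome: free RPL11 and RPL5 bind MDM2 and so stabilise p53.

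Start-site sequence was the feature shared by members that the choice by name had not used. RefSeq start sites (GRCm38.p6) were found for 43 of the 49 genes by gene ID. In the window of 25 bases either side of a start, on the transcribed strand, 27 of 43 member genes (62.8%) held an unbroken run of at least 7 bases that were all C or T, against 32.7% of all 27025 genes in the promoter table. The letters CCGGAA on either strand, the core recognised by ETS family factors, were found in the RefSeq window (250 bases before the start to 50 after it) in 28 of the 43 (65.1%), against 16.7% of all genes. The reverse letters TTCCGG can overlap a C or T run by their first bases. A match is a description of letters and not evidence of binding or of translational control. The 30-base windows below are those of the members with the highest and lowest ratios (Rpl11 and Rplp0), of Rpl13a and Rps28, whose probe sets disagreed, of Rps9, of the paralogs Rps27l and Rpl22l1, and of Rpl7a, which held the longest run. Capitals mark the longest C or T run in each window, in the 5′ to 3′ direction. At Rps27l, where a second run is equally long, they mark the first.
Rplp0 (chr5:115559462-115559491, plus strand): ttcgaggaccgcctggTTCTCCTataaaag
Rpl11 (chr4:136053369-136053398, minus strand): aggccacggggccggaagTCTCCCTCTCTC
Rpl13a (chr7:45128722-45128751, minus strand): cgacaagaCCTCCTCCTTTCCCaggcggct
Rps28 (chr17:33824558-33824587, minus strand): aggaTTCCTgggtaccgcgtgcggtctcgc
Rps9 (chr7:3704024-3704053, plus strand): caaccgccttgTCTCTCTTTgtctcgggcc
Rps27l (chr9:66946061-66946090, plus strand): ccaCTCCTCTCCactcctccccgccgcctc
Rpl22l1 (chr3:28805499-28805528, plus strand): cgcaagcccgTTCTCTTCCCacggctgcag
Rpl7a (chr2:26910788-26910817, plus strand): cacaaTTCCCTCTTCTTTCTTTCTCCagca
The runs were 7 bases long at Rplp0, the gene with the lowest ratio, and 12 at Rpl11, the gene with the highest. The run at Rpl11 reaches the end of the searched window, so 12 bases is a lower bound of its length. Rpl7a, with a run of 21 bases, had a ratio near the middle of the family, and Rps28 held no run longer than 5 bases at the RefSeq start used here.

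Values are intensities on a linear scale as the authors deposited them, and no source used here names the software that made them. Both arrays had been scaled to the same trimmed mean (lowest and highest 2% dropped), and their medians were 242.4 in the EST KO pool and 261.8 in the WT pool. Background, the 95th percentile of 127 probe sets for families with little kidney expression, such as odorant receptors, was 642.0 in the EST KO pool and 676.5 in the WT pool. A gene was called measured where its brightest probe set lay above background in at least 1 pool, and values below background were raised to it. All 11 kidney marker genes were measured, among them Umod, at 22735 in the EST KO pool and 25568 in the WT pool. The labels' treatment text calls the EST KO tissue liver while the other fields call it kidney. Of 9 hepatocyte markers on the arrays, Alb (522.3 in EST KO, 487.9 in WT), Apoa1, Apoa2, Ahsg and Tat lay below background in both pools. The other 4 were measured: Ttr read 11957 in EST KO and 1716 in WT, 6.97-fold higher, and Cps1 read 811.7 in EST KO and 730.7 in WT. Apob (475.1 in EST KO, 778.6 in WT) and Fgb (7.5 in EST KO, 1284 in WT) were above background in WT only. The 3 probe sets for 18S ribosomal RNA, which oligo-dT priming largely leaves out, also lay below background in both pools (49.8 to 579.7 in EST KO, 19.4 to 307.0 in WT).

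Ribosomal protein mRNAs differed little between the pools and formed a narrow block. Of 49 member genes, 42 were measured, all 42 of them above background in both pools. The brightest probe sets ranged from 726.3 to 22363 in the EST KO pool and from 749.3 to 22590 in the WT pool, and levels of different genes are not compared because each probe set has its own brightness. With the 1.2-fold band chosen after the values were seen, 35 of the 42 genes (83.3%) lay within 1.2-fold of equality, against 53% of all 7459 measured genes. After quantile normalization that contrast was gone, with 23 members (54.8%) within 1.2-fold, against 53.9% of all measured genes. The interquartile range of the members' log2 ratios, EST KO minus WT, ran from −0.16 to −0.01, a width of 0.15, against −0.27 to 0.20, a width of 0.47, for all measured genes.

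**Figure D1:**
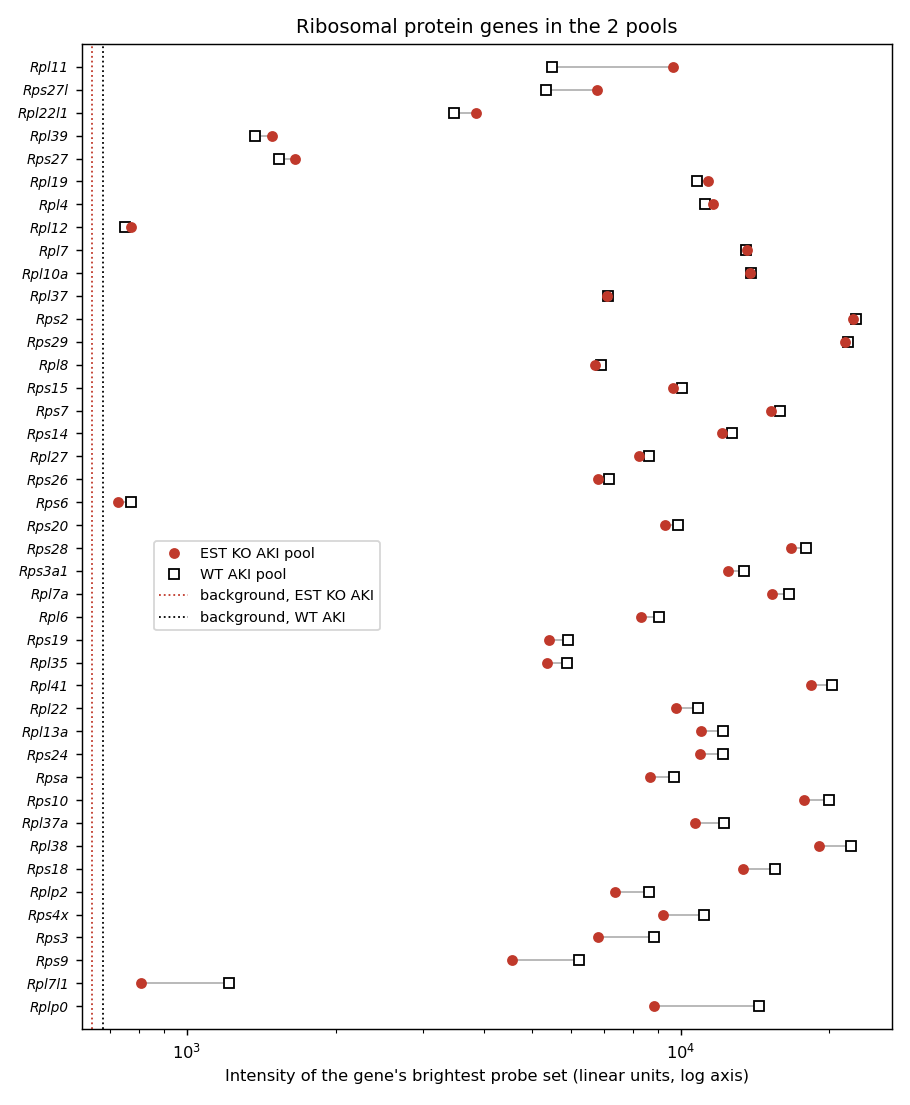
Intensity of the brightest probe set of each of the 42 measured ribosomal protein genes (log axis) in the EST KO AKI pool (filled circles) and the WT AKI pool (open squares), 1 array each, sorted by ratio; dotted lines mark each array's background. Most pairs nearly touch, Rpl11 stands out as higher in the EST KO pool (9645 against 5490 in WT) and Rplp0 as lower (8841 against 14407), and symbols are comparable within a row only.

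The small shift that there was ran downward in the EST KO pool. With the arrays as deposited, 33 of the 42 genes were lower in the EST KO pool and 9 higher, against a background of 54.7% lower and 43.7% higher among all measured genes. After both arrays were centred on the median gene, the split was 28 lower and 14 higher. The median log2 ratio of the members was −0.10, beside −0.05 for all measured genes, and it was −0.05 after centring, −0.18 after removal of the trend of ratio with level and −0.24 after quantile normalization. The median was thus negative under each of these scalings, and its size varied among them. The summed intensity of the 105 member probe sets was 1.99% of the EST KO array and 2.24% of the WT array.

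Few members were far from equality. At least 1.5-fold higher in the EST KO pool was 1 gene, Rpl11 (background 8.49% of measured genes), and at least 1.5-fold lower were 2 genes, Rplp0 and Rpl7l1 (background 7.36%). Rpl7l1, at a log2 ratio of −0.59, was under 1.5-fold after centring (−0.54), quantile normalization (−0.55), removal of the trend (−0.52), with a pseudocount (−0.39) and as the mean of its probe sets (−0.26). No member gene was 2-fold apart in either direction by its brightest probe set, where the background was 3.03% higher and 1.41% lower. These counts stand on 1 array per genotype, and the only error these arrays hold is the disagreement among readings of 1 gene. This was read from the 20 member genes with at least 2 probe sets above background in both pools (54 probe sets). The pooled SD of the log2 ratio within a gene was 0.21, beside an SD of 0.23 between the 42 genes. Without Rps28, whose probe sets disagreed most, these were 0.18 within a gene and 0.23 between genes.

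Most member probe sets are bright, so bright probe sets outside the family were read beside them. The 2% of probe sets with the highest mean of both arrays had means of at least 4835, and 55 member probe sets were among them. The 786 bright probe sets outside the family were higher in the EST KO pool in 63% of cases, and lower in 37%, with a median log2 ratio of 0.19 and an interquartile range from −0.14 to 0.59. Of them, 25.4% were 1.5-fold or more higher and 6.87% lower, 9.8% were 2-fold or more higher and 2.29% lower, and 38.8% lay within 1.2-fold. The width of their interquartile range was 0.73, against 0.15 for the member genes, each read from its brightest probe set. Counted by probe set, as the bright ones are, the interquartile range of the 79 measured member probe sets was wider, from −0.22 to −0.01. The 4 genes with the highest mean were Kap, an androgen-regulated kidney protein, at 38640 in EST KO and 33733 in WT, Eef1a1 (35160 in EST KO, 36351 in WT), the ferritin chain Fth1 (31584 in EST KO, 31970 in WT) and Tpt1, itself a TOP mRNA (30984 in EST KO, 32254 in WT). A second Kap probe set ran the other way, at 31174 in EST KO and 39386 in WT. After quantile normalization the widths were 0.72 for the bright probe sets and 0.21 for the member genes, and the bright median was −0.00. The interquartile range of the members was narrower than that of all measured genes in each of the 9 settings.

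**Figure D2:**
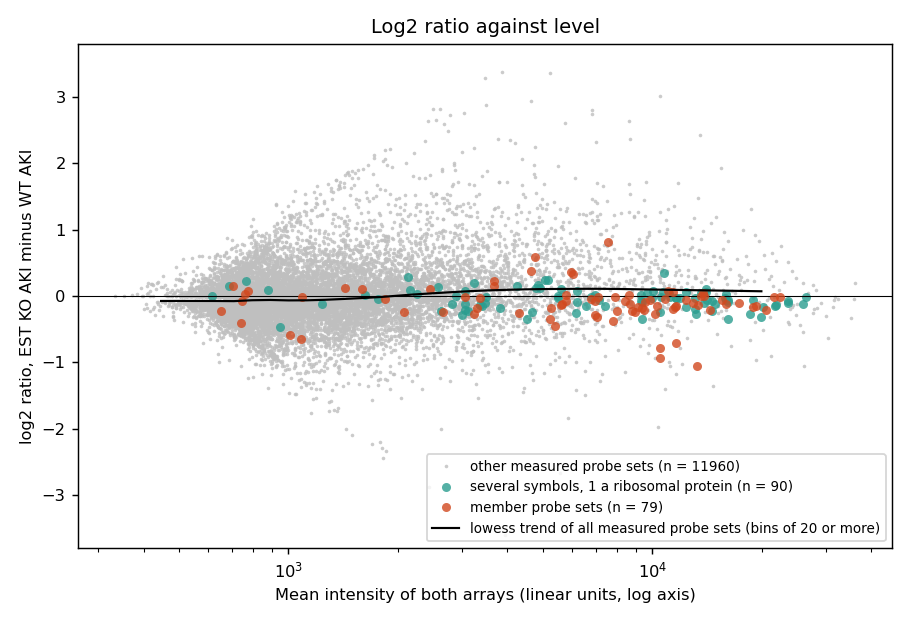
Log2 ratio (EST KO AKI minus WT AKI) of measured probe sets against their mean intensity in both arrays (log axis), with the 79 member probe sets, the 90 probe sets that name a ribosomal protein beside other loci, and the lowess trend of all. Members lie in a thin band just under 0 on the bright side, where the trend of all probe sets runs above 0.

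The large subunit genes, stalk included, had 20 of 22 members measured, with a median log2 ratio of −0.09. The EST KO pool was below WT for 14 of them and above it for 6 (background 54.7% and 43.7% of measured genes). At the ribosomal stalk, the flexible arm that recruits elongation factors, Rplp0 read 8841 in the EST KO pool and 14407 in the WT pool on its 1 probe set. Rplp0 carries the paired acidic proteins P1 and P2 and, under its older name 36B4, is often used as a reference transcript. It was 1.63-fold lower, a log2 ratio of −0.70, with values from −0.86 to −0.66 over 9 settings. Only the scalings and the pseudocount among these could change the ratio, since Rplp0 is bright and has 1 probe set. Rplp2, one of the acidic proteins it carries, read 7368 in the EST KO pool and 8612 in the WT pool and was 1.17-fold lower. Rpl12, at the base of the stalk, was near background at 768.7 in EST KO and 749.3 in WT. The stalk genes thus ran from a ratio near 0 to the lowest of the family, and with 1 probe set each there was no second reading of any of them.

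Rpl11 was the only member at least 1.5-fold higher by its brightest probe set. With Rpl5 and 5S RNA, RPL11 forms the particle that is built into the large subunit during its assembly and that binds MDM2 when free. It read 9645 in the EST KO pool and 5490 in the WT pool on its 1 probe set, a 1.76-fold difference. Its log2 ratio was 0.81, with values from 0.62 to 0.86 over 9 settings. Only the scalings and the pseudocount could change it. The settings of floor, background and probe set choice cannot move a bright gene with 1 probe set. No single-symbol probe set for Rpl5 was on the arrays.

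Genes of the polypeptide tunnel and its exit lay close to equality. Of the 5 measured, Rpl4, which lines the tunnel, read 11615 in EST KO and 11186 in WT. Rpl19, which also bridges to the small subunit, read 11345 in EST KO and 10775 in WT, and Rpl39, a very small tunnel protein, 1490 in EST KO and 1370 in WT. These 3 were higher by 1.04-fold, 1.05-fold and 1.09-fold. Rpl35, at the tunnel exit, read 5352 in EST KO and 5877 in WT and was 1.10-fold lower, and all 6 of its probe sets were lower in the EST KO pool. Rpl22, a protein near the exit that ribosomes can do without, was 1.11-fold lower. All 5 genes lay within 1.2-fold, and their median log2 ratio was 0.05, turning to −0.10 with quantile normalization and to −0.04 once the trend was taken out, so the group had no settled direction.

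The other large subunit genes were nearly level or slightly lower by their brightest probe sets. Rpl38, which is known for its part in the translation of Hox mRNAs in the mouse embryo, read 19080 in EST KO and 22073 in WT, 1.16-fold lower. Rpl37a read 10674 in EST KO and 12206 in WT, 1.14-fold lower, and Rpl41, one of the smallest proteins known, 18347 in EST KO and 20276 in WT, 1.11-fold lower. Rpl6, Rpl7a, Rpl27, Rpl8, Rpl37 and Rpl10a, the protein commonly tagged to purify ribosomes from chosen cells, were lower by 1.00-fold to 1.09-fold. Rpl7 differed by 1.00-fold on its brightest probe set, with 13606 in EST KO and 13553 in WT. A dimmer probe set of Rpl7 was 1.29-fold higher (6724 in EST KO, 5208 in WT), and the mean of its probe sets was a log2 ratio of 0.13. Apart from Rplp0 and Rpl11, all 18 measured large subunit genes, Rplp2 among them, lay within 1.2-fold by their brightest probe sets.

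Of 19 measured small subunit genes (of 21), 18 were lower in the EST KO pool (background 54.7% of measured genes), with a median log2 ratio of −0.10. After centring on the median gene that median was −0.05, and Rps2 and Rps29 turned to just above WT, each at 0.03. Rps9, which helps to set the accuracy of decoding, read 4557 in the EST KO pool and 6218 in the WT pool and was 1.36-fold lower, with a second probe set 1.18-fold lower. Rps3, at the channel where mRNA enters, read 6791 in EST KO and 8823 in WT, 1.30-fold lower, and its second measured probe set differed by 1.01-fold. Rps4x, encoded on the X chromosome, read 9209 in EST KO and 11154 in WT on its 1 measured probe set, 1.21-fold lower. These 3 were the only small subunit genes outside 1.2-fold.

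Genes for the decoding centre and the mRNA path were all lower by their brightest probe sets, 7 of 7 (background 54.7% of measured genes). Their median log2 ratio was −0.07 (−0.02 after centring on the median gene), and centring put Rps2 above WT, at 0.03. The second probe set of Rps15 was 1.01-fold higher with the arrays as deposited. Rps18 read 13367 in EST KO and 15483 in WT, 1.16-fold lower, and all 3 of its measured probe sets were lower by 1.14-fold to 1.16-fold. Rps26, at the mRNA exit, read 6806 in EST KO and 7145 in WT, and Rps15 read 9645 in EST KO and 10035 in WT, 1.05-fold and 1.04-fold lower. Rps2, at the mRNA entry, differed by 1.01-fold (22363 in EST KO, 22590 in WT). Rps14, another protein of the mRNA path, was 1.04-fold lower.

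Diamond-Blackfan anemia is a human failure of red cell production caused by loss of 1 copy of a ribosomal protein gene. Of 6 measured genes on the list used here, 5 were lower by their brightest probe sets (background 54.7% of measured genes). The list leaves out some genes of that disease, such as Rps27, Rps28 and Rps29. Rps10 read 17799 in EST KO and 19951 in WT, 1.12-fold lower, and its 4 measured probe sets were all lower. Rps24 read 10920 in EST KO and 12189 in WT, 1.12-fold lower, and its 4 measured probe sets were lower too. Rps19, the gene most often mutated in that disease, read 5406 in EST KO and 5899 in WT, 1.09-fold lower. Rps7 (1.04-fold) and Rps26 (1.05-fold) were lower by less, and Rpl11 was the 1 gene of the list that was higher by its brightest probe set. The second probe set of Rps7 was 1.17-fold higher (3974.5 in EST KO, 3388.8 in WT). As the mean of its probe sets, Rps7 had a log2 ratio of 0.08.

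The remaining small subunit genes included Rpsa, also known as the laminin receptor, which read 8651 in EST KO and 9669 in WT, 1.12-fold lower. Rps6, the protein phosphorylated by S6 kinase downstream of mTORC1, was near background at 726.3 in EST KO and 768.8 in WT. Rps3a1 and Rps20 were 1.07-fold and 1.06-fold lower, and Rps29, a small zinc-binding protein, differed by 1.01-fold (21478 in EST KO, 21756 in WT). Rps27, another zinc-binding protein, was the 1 small subunit gene on the higher side, with 1658 in EST KO and 1535 in WT, 1.08-fold.

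**Figure D3:**
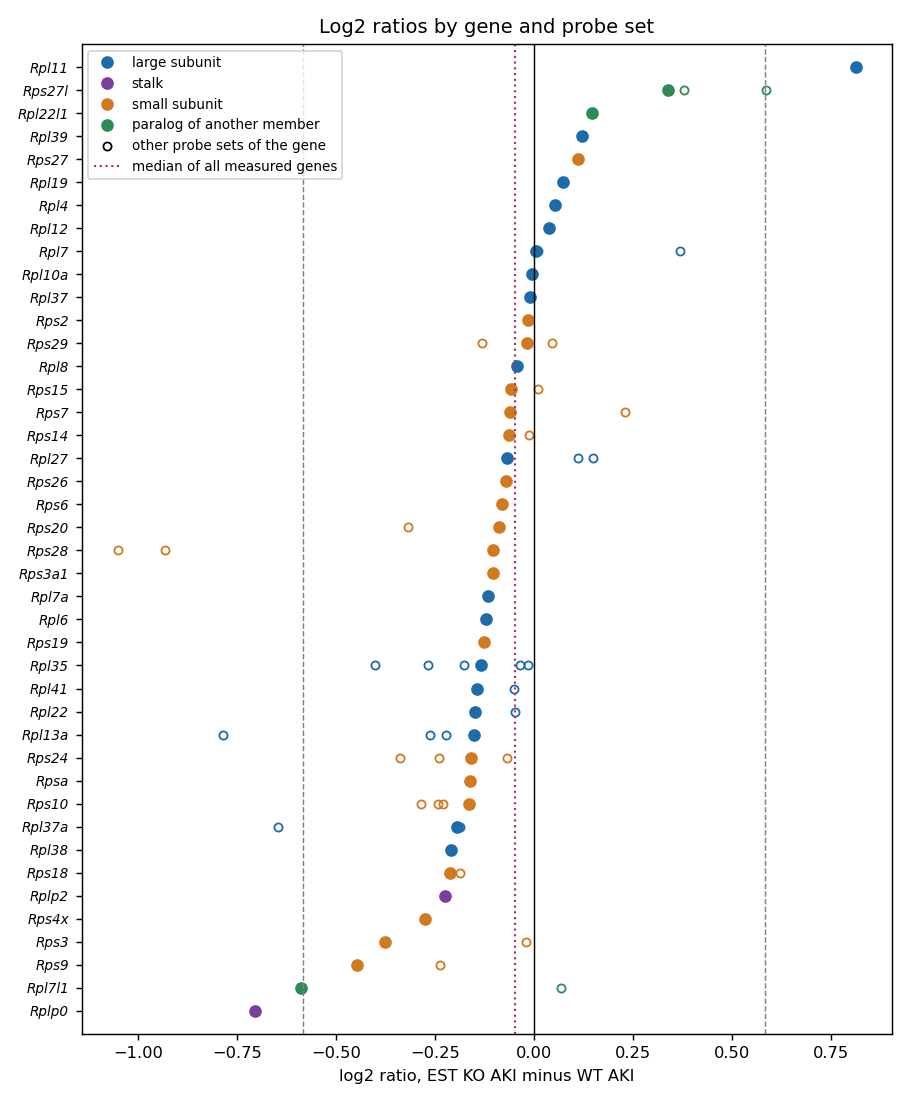
Log2 ratio (EST KO AKI minus WT AKI) of each measured ribosomal protein gene by its brightest probe set (filled) and its other measured probe sets (open), coloured by role; dashed lines mark 1.5-fold and the dotted line the median of all measured genes (−0.05). All 3 probe sets of Rps27l lie to the right of 0, and those of Rps28 lie apart from each other.

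Paralogs, which are encoded by separate genes and resemble another member, had an SD of the log2 ratio of 0.49 over 3 measured genes, beside 0.21 for the 39 others. Rps27l, a close copy of Rps27 that p53 is known to induce, read 6762, 5729 and 5241 in the EST KO pool on its 3 probe sets, against 5343, 3818 and 4032 in the WT pool on the same probe sets in that order. It was higher on all 3, by log2 ratios of 0.34, 0.59 and 0.38. Its log2 ratio was 0.14 under quantile normalization and 0.59 once the _x_at and _s_at probe sets were dropped, so its direction held while its size depended on the processing. Rpl22l1, a copy of Rpl22 that RPL22 is known to hold down in the mouse, read 3854 in EST KO and 3480 in WT and was 1.11-fold higher, but its log2 ratio was −0.02 under quantile normalization. Rpl22 itself read 9794 in EST KO and 10855 in WT.

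Rpl7l1, a relative of Rpl7 found in precursors of the large subunit, read 807.9 in EST KO and 1216 in WT on its brightest probe set, a log2 ratio of −0.59. Its second measured probe set was 1.05-fold higher (795.0 in EST KO, 757.7 in WT), and the mean of the pair was a log2 ratio of −0.26. It was the only member gene whose probe sets opposed each other by at least 1.5-fold. Rpl3l, the copy of Rpl3 used in heart and skeletal muscle, read 182.4 in EST KO and 227.8 in WT, Rpl39l, a copy used in testis, 6.3 in EST KO and 24.0 in WT, and Rps4l 28.8 in EST KO and 35.9 in WT. These 3 paralogs lay below background in both pools, so they have no ratio. A further 4 members were below background in both pools, Rpl14, Rpl27a, Rps16 and Rps25, at 12.5 to 590.0 in EST KO and 10.9 to 585.0 in WT. Their single-symbol probe sets are dim, which says nothing about their transcripts, since every cell makes these proteins.

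Probe sets of the same gene agreed in direction for most genes and disagreed in size for a few. Of 20 genes with at least 2 measured probe sets, 5 had probe sets on both sides of 0 (Rpl7l1, Rpl27, Rps7, Rps15 and Rps29). Counted by probe set, 79 of 105 were measured, 60 lower and 19 higher (background 52.8% and 45.1% of all measured probe sets), and 60 lay within 1.2-fold (background 54%). At least 1.5-fold lower were 6 probe sets and at least 1.5-fold higher 2 (background 6.88% and 9.14%). Rps28, a small protein at the mRNA exit, held the only 2-fold lower reading (background 1.39%), and none was 2-fold higher (background 3.17%). Its brightest probe set read 16715 in EST KO and 17950 in WT, 1.07-fold lower, while the other 2 read 8641 and 7237 in EST KO against 17898 and 13811 in WT, 2.07-fold and 1.91-fold lower. Those 2 carry the suffix _x_at, which Affymetrix gives to probe sets with probes that can bind other transcripts, and the mean of all 3 was a log2 ratio of −0.70.

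Rpl13a, which also acts in a complex that silences translation of inflammatory mRNAs in human myeloid cells, showed a similar split. Its brightest probe set read 10982 in EST KO and 12199 in WT, 1.11-fold lower, and another bright one read 7714 in EST KO and 13303 in WT, 1.72-fold lower. Its other measured probe sets had log2 ratios of −0.22 and −0.26, so that all 4 were lower and only 1 passed 1.5-fold. For Rpl37a, a dimmer probe set read 841.6 in EST KO and 1319 in WT, 1.57-fold lower, against 1.14-fold for each of the other 2. For 1634 genes outside the family, the pooled SD within a gene was 0.29, beside 0.21 for the members.

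Ribosomal protein genes have many processed copies in the genome, and more probe sets on these arrays named a ribosomal protein together with pseudogenes or predicted loci than named one alone. Those 110 probe sets were left out of the members and are not assigned to genes. Of 90 measured, 59 were lower in the EST KO pool, 30 higher and 1 had no order (background 52.8% lower and 45.1% higher among all measured probe sets). Their median log2 ratio was −0.04, and none was 1.5-fold apart in either direction. Their extremes were log2 ratios of −0.47 and 0.35, and 88.9% lay within 1.2-fold. Their interquartile range ran from −0.15 to 0.05, around 0 rather than below it.

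Mitochondrial ribosomal proteins, encoded by separate nuclear genes for the ribosome inside mitochondria, were read as the nearest comparison. Of 75 genes 65 were measured, 39 of them above WT in the EST KO pool and 26 below (background 43.7% and 54.7%). Their median log2 ratio was 0.05, with an interquartile range from −0.10 to 0.33. By 1.5-fold or more, 8 were higher and 3 lower (background 8.49% and 7.36%). Their median stayed positive after centring (0.10), quantile normalization (0.05) and removal of the trend (0.08), while that of the cytosolic members was negative in each. The difference between both families was not tested, since each has 1 array per genotype.

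**Figure D4:**
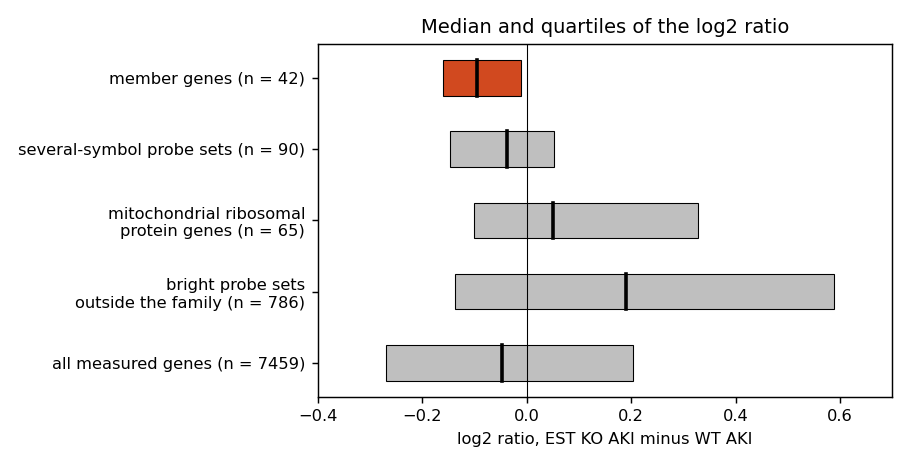
Median (black line) and quartiles (bar ends) of the log2 ratio, EST KO AKI minus WT AKI, for the 42 member genes, 90 several-symbol probe sets, 65 mitochondrial ribosomal protein genes, 786 bright probe sets outside the family and 7459 measured genes. The member bar, counted by gene, runs from −0.16 to −0.01, is the narrowest and lies wholly below 0 with the arrays as deposited. Counted by probe set, the quartiles of the members were −0.22 and −0.01.

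Genes that build ribosomes were lower in a share close to that of all measured genes. Of 45 biogenesis factors on the arrays 30 were measured, 18 lower, 10 higher and 2 without an order (background 54.7% lower and 43.7% higher), with a median log2 ratio of −0.11. Ddx21, a nucleolar helicase, was the 1 at least 1.5-fold lower (645.4 in EST KO, 1174 in WT, 1.82-fold, close to background in EST KO). Dkc1, which makes pseudouridine in ribosomal RNA, read 1388 in EST KO and 2046 in WT, 1.47-fold lower, with a second probe set 1.06-fold lower. Heatr1, a factor of early ribosomal RNA processing, read 1724 in EST KO and 1230 in WT, 1.40-fold higher, with a second probe set at equality. Gnl2, a GTPase of large subunit assembly, read 1012 in EST KO and 584.2, below background, in WT, a log2 ratio of at least 0.58, a bound that leaves unsettled whether it passed 1.5-fold. Of the biogenesis factors above background in both pools, none was 1.5-fold higher.

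Of 14 genes for RNA polymerase I and its factors, which transcribe ribosomal RNA, 7 were measured. Of these, 4 were lower and 3 higher (background 54.7% and 43.7%), with a median log2 ratio of −0.30. Polr1d, a subunit shared with RNA polymerase III, read 2259 in EST KO and 4665 in WT, 2.06-fold lower, although another of its 4 measured probe sets lay at a log2 ratio of −0.05. Polr1a, the largest subunit, was 1.49-fold lower (669.5 in EST KO, 1001 in WT), and Ubtf, which opens ribosomal DNA, was 1.15-fold higher. Taf1d, a subunit of the polymerase I promoter factor, read 835.4 in EST KO and 477.9, below background, in WT, a log2 ratio of at least 0.30. The 7 genes thus lay on both sides of 0.

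Other mRNAs with a TOP tract had a median near 0, and a smaller share of them than of the members lay within 1.2-fold with the arrays as deposited. All 14 were measured, 8 lower and 6 higher (background 54.7% and 43.7%), with a median log2 ratio of −0.04 (0.01 after centring). None was 1.5-fold apart (background 8.49% higher and 7.36% lower). Their SD was 0.27, beside 0.23 for the members by gene and 0.28 by probe set, so a wider spread was not settled. Within 1.2-fold lay 8 of the 14 (57.1%), beside 83.3% of the members and 53% of all measured genes. After quantile normalization the share of the members was 54.8%, and that of the TOP mRNAs was not read. Eef1a1, the elongation factor that delivers aminoacyl-tRNA, read 35160 in EST KO and 36351 in WT, and Eef2, which moves the ribosome along, 18760 in EST KO and 19131 in WT, 1.03-fold and 1.02-fold lower. The ends were Eef1b2, an exchange factor for eEF1A, 1.37-fold lower, and Hnrnpa1, a splicing regulator, 1.34-fold lower, against the initiation factor subunits Eif3h, 1.34-fold higher, and Eif3e, 1.27-fold higher. Fau, which encodes the small subunit protein eS30 fused to a ubiquitin-like protein and falls outside the naming rule, read 13006 in EST KO and 12432 in WT, 1.05-fold higher.

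Regulators of TOP mRNAs included larger ratios. Of 9 measured, 6 were higher and 3 lower, and 3 passed 1.5-fold, 2 of them upward (background 43.7% higher, 54.7% lower, 8.49% at least 1.5-fold higher and 7.36% lower). Mtor, the kinase of mTORC1, read 1808 in EST KO and 956.2 in WT, 1.89-fold higher, with a second probe set at 1.09-fold. Rheb, the GTPase that switches mTORC1 on, read 6293 in EST KO and 3640 in WT, 1.73-fold higher. Eif4ebp1, a translation repressor that mTORC1 turns off, read 2573 in EST KO and 4196 in WT, 1.63-fold lower, and both of its measured probe sets were lower. Rptor, the mTORC1 subunit that picks substrates, was 1.13-fold lower. Larp1, which binds the TOP tract, differed by 1.05-fold (3140 in EST KO, 3291 in WT), and Myc, which drives ribosome production, by 1.02-fold. These are mRNA levels, and the activity of mTORC1 and the translation of TOP mRNAs were not measured.

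Genes around MDM2 and p53 were read because Rpl11 and Rps27l, which led the higher side, are both tied to them. All 3 measured were higher (background 43.7% of measured genes), and 2 of them passed 1.5-fold by their brightest probe sets (background 8.49%). Their median log2 ratio was 0.64 with the arrays as deposited. It was under 1.5-fold after quantile normalization (0.44) and removal of the trend (0.53). Mdm4, also on this list, lay below background in both pools (407.6 in EST KO, 557.9 in WT). Mdm2 read 2270 in EST KO and 1763 in WT, 1.29-fold higher. Cdkn1a, the cell cycle inhibitor p21, was 1.55-fold higher (5948 in EST KO, 3826 in WT), and Ccng1, a cyclin induced by p53, 1.97-fold higher (3512 in EST KO, 1786 in WT). Each measured probe set of Mdm2, Cdkn1a and Ccng1 lay above WT in EST KO. The lowest probe sets of Cdkn1a and Ccng1 were under 1.5-fold, at log2 ratios of 0.29 and 0.52. Whether these differences are linked to those of Rpl11 and Rps27l was not tested.

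**Figure D5:**
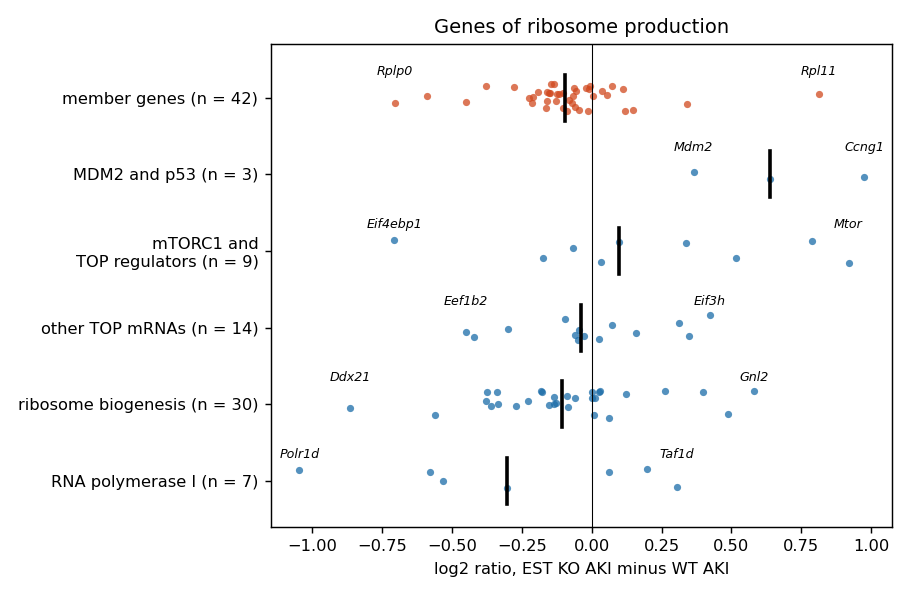
Log2 ratio (EST KO AKI minus WT AKI) of each measured gene for the members and 5 lists around ribosome production, with the list median as a black line and the lowest and highest genes named; vertical jitter has no meaning. Most members lie close to 0, the other TOP mRNAs run from −0.45 to 0.42, and single regulators such as Mtor (0.92) and Eif4ebp1 (−0.71) lie farther out.

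Cell type markers also differed between the pools. Of 11 kidney tubule markers 9 were above WT in EST KO by their brightest probe sets (background 43.7% of measured genes). Their summed intensity was 136710 in EST KO and 104700 in WT. Kap, the largest part of both sums (38640 in EST KO, 33733 in WT), was lower on its second probe set (31174 in EST KO, 39386 in WT). Slc22a6, an organic anion transporter, was 6.11-fold higher on its brightest probe set (a log2 ratio of 2.61, against 0.88 on the other). Aqp2, of the same list, was 1.57-fold lower (3964 in EST KO, 6236 in WT). Umod was 1.12-fold lower on its brightest probe set, with a log2 ratio of 0.05 on the other. Measured markers of macrophages (5 of 5), endothelium (4 of 4) and neutrophils (2 of 2) were lower, as were 3 of 4 of fibroblasts. Among all measured genes 54.7% were lower. The macrophage marker Cd68 and the endothelial marker Pecam1 were above background in WT only. The summed intensity of the 6 macrophage markers was 7670 in EST KO and 11874 in WT, and of the 5 endothelial markers 4321 in EST KO and 5837 in WT. That of the 4 neutrophil markers was 2238 in EST KO and 4199 in WT, and that of the 5 fibroblast markers 6708 in EST KO and 8440 in WT. The summed intensity of the 9 hepatocyte markers was 14663 in EST KO and 5763 in WT, of which Ttr made up 11957 in EST KO and 1716 in WT, and the part of any liver RNA in the results was not tested. Csf3r and Cxcr2, both neutrophil receptors, lay below background in both pools. In tissue of mixed cells, fewer cells of a type and less RNA per cell cannot be told apart, and the part of cell composition in the ribosomal protein shift was not tested. RNA integrity was read from the control probe sets, where signal at the 3′ end over that at the 5′ end was 1.28 in EST KO and 1.35 in WT for actin, and 0.84 in EST KO and 0.88 in WT for GAPDH.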

How the data were processed

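The deposited values are linear intensities, 1 for each of 45101 probe sets on each array. Biotinylated cRNA was hybridised to the arrays, per the labels' protocols; no source used here gives the scanner software or summary method. Gene symbols came from the platform annotation (1 symbol for 34958, several for 932, none for 9211), and symbols outside the family were updated by Entrez ID through RefSeq GRCm38.p6, which matched 34754. Array medians differed by 7.41%, under the 10% limit, so no scaling was added. A gene was read from its brightest probe set, and named genes were the 4 highest and 4 lowest ratios of each role group, the 5 brightest members, members 1.5-fold apart, with opposed probe sets or below background, the 2 highest and 2 lowest of each list, and the 4 brightest genes outside the family. Marker lists are given as counts and sums, and other genes were named after their values were seen. Members, lists and thresholds were chosen with earlier results of these data known, and the 1.2-fold band after these values were seen. Alternatives were centring, quantile normalization, lowess (statsmodels 0.14.6, fraction 0.3), no floor, a pseudocount of 500, background at the 75th percentile, the mean of probe sets, and omission of _x_at and _s_at probe sets. Measuring steps (Python 3.11.15, pandas 2.3.3) were tested on simulated data. The number of arrays limits precision, and no replicate exists.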

Additional observations from a re-analysis of the deposited data

How the results depend on the processing

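With 1 array per genotype no replicate could be left out. No paired analysis was possible because each group has a single pool and the result comes from no test. A median was taken as moved when it changed by at least 0.1 on the log2 scale, and a count when it changed by over 1.5 times. Quantile normalization moved the median of the family to −0.24, of the large subunit to −0.24 and of the small subunit to −0.26, and it left 5 genes higher in the EST KO pool and 23 within 1.2-fold, in place of 9 and 35. Centring on the median gene gave 14 genes higher. Genes at least 1.5-fold lower numbered 1 in place of 2 after centring, with the lowess trend removed and with a pseudocount, since Rpl7l1 fell under 1.5-fold. The count stayed at 2 with an exchange of genes under quantile normalization, where Rps9 (−0.63) took the place of Rpl7l1 (−0.55), and with the mean of probe sets, where Rps28 took its place. Without _x_at and _s_at probe sets, genes at least 1.5-fold higher numbered 2, where Rps27l joined Rpl11. Genes at least 1.5-fold lower numbered 3 in that setting, where Rpl13a joined Rplp0 and Rpl7l1. Single genes moved by more than the spread between probe sets in 4 comparisons and by less in 323. The 4 were Rpl7l1 (−0.26) and Rps28 (−0.70) with the mean of probe sets, and Rpl13a (−0.79) and Rps27l (0.59) without _x_at and _s_at probe sets. The 323 include comparisons that could not change, such as no floor for genes above background in both pools. No gene at least 1.5-fold apart changed sign under any of the 8 alternatives; up to 5 genes nearer to 0 did under 1 alternative, 5 of them after centring and 4 under quantile normalization. Counted over every member probe set the median was −0.10, and with probe sets of several symbols added −0.07, both chosen after seeing the data. Values near background, such as those of Rpl7l1, Rpl12 and Rps6, are the least certain.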
